A study of Mus musculus with 22 samples.

Results

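The miR-741, miR-743 and miR-880 group comprised 9 mature miRNAs, which were mmu-miR-741-3p, mmu-miR-743a-3p, mmu-miR-743b-3p, mmu-miR-871-3p, mmu-miR-880-3p, mmu-miR-881-3p, mmu-miR-883a-3p, mmu-miR-470-5p and mmu-miR-471-5p (the prefix mmu, for mouse, is left out hereafter). They were chosen by name and are 9 of the 1966 mature mouse miRNA names counted in these libraries. All 9 were counted in every library and passed the filter on low counts in every comparison. miRNA-seq was performed on round spermatids (RS), haploid cells made by meiosis that have not yet elongated, purified on a sedimentation gradient from mouse testes at 75 to 85 days of age. Of the 22 libraries, 5 WT and 5 KO libraries formed batch 1, and 6 WT and 6 KI libraries formed batch 2. KO mice lacked GRTH (DDX25), a germ cell RNA helicase needed for round spermatids to elongate, and KI mice carried a human GRTH gene with a single amino acid substitution that removes the phosphorylated form of the protein. The WT mice of each batch served as the control of that batch only. The GRTH transcript is not a miRNA and was not analysed here, and nothing in the labels said which libraries came from separate animals, so the p-values measure the spread between these libraries. In a pool of cells, fewer cells of a type and less RNA per cell cannot be told apart.

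A miRNA is cut from a hairpin precursor whose 5′ and 3′ arms give products named 5p and 3p, and its seed (bases 2 to 8) pairs with target mRNAs when the miRNA is held by an Argonaute protein. The 9 miRNAs belong to the miR-506-like family, a fast-evolving set of X-linked hairpins that in the mouse is found mainly in the testis, in meiotic and post-meiotic germ cells. Genes on the X chromosome are silenced during male meiosis, and many X-linked miRNAs of the testis are known to remain expressed.

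The mature sequences are shown because they tell which members could share targets and which could share reads. They were taken from RefSeq (GRCm38.p6), which held all 9 members at the coordinates of the deposited table. Capitals mark the seed.
miR-743a-3p: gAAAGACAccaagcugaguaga
miR-743b-3p: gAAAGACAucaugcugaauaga
miR-741-3p: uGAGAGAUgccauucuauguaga
miR-880-3p: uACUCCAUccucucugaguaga
miR-881-3p: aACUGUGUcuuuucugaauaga
miR-883a-3p: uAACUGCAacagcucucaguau
miR-871-3p: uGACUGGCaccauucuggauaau
miR-470-5p: uUCUUGGAcuggcacuggugagu
miR-471-5p: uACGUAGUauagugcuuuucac

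The 2 miR-743 members shared the seed AAAGACA, the only seed held by more than 1 member. Their mature sequences were 86.4% identical, with the substitutions C9U, A12U and G18A counted from the 5′ end of miR-743a-3p. miR-883a-3p shared its seed AACUGCA with miR-883b-3p, a neighbour that is not among the 9, and differed from it by the single substitution G12U (95.5% identity). No other member's seed was found in any other mature name among the 1679 RefSeq mouse entries searched. Of the 9, miR-741-3p, miR-743a-3p, miR-743b-3p, miR-880-3p and miR-881-3p end in UAGA and the other 4 do not. This end is held by 14 (0.834%) of all 1679 entries, among them miR-878-3p and miR-465a-3p, which are miR-506-like products outside the group. Whether single reads of miR-743a-3p and miR-743b-3p, or of miR-883a-3p and miR-883b-3p, were assigned to the right name was not determined here.

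All members mapped to a single locus each on the minus strand of chromosome X, within chrX:66776760-66814017 (GRCm38), a stretch of 37.3 kb. Each lay inside its own miRNA gene of GENCODE vM21 (Mir743, Mir743b, Mir883a, Mir471, Mir741, Mir880, Mir881, Mir871 and Mir470), and none overlapped another annotated gene. In the direction of transcription the order was Mir470, Mir871, Mir881, Mir880, Mir741, Mir471, Mir883a, Mir743b and Mir743. The gaps between neighbouring member hairpins ranged from 437 bases, between Mir743b and Mir743, to 11761 bases, between Mir471 and Mir883a. miR-880-3p lies at chrX:66800540-66800561 and miR-741-3p at chrX:66796809-66796831.

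Total counts were 870913 to 1081333 per library in WT and 559957 to 881323 in KO (batch 1), and 2067322 to 3239357 in WT and 2107461 to 3101145 in KI (batch 2). Levels are given as CPM (read counts brought to a common library size by TMM over all 22 libraries), and 3 counts, the smallest amount taken as detectable, equal 0.926 CPM in the deepest library and 5.36 CPM in the shallowest. The lowest count of any member in any library was 217. The labelled cell type was checked with 6 mature products of miR-34b, miR-34c, miR-449a and miR-449c, miRNAs of late meiotic and post-meiotic germ cells. They summed to 170023 to 238792 CPM in batch 1 and 338495 to 420409 CPM in batch 2, while 7 products of the miR-290 and miR-302 clusters, which mark undifferentiated germ cells, summed to 48.4 to 125 CPM over all libraries. Most of the first sum was miR-34c-5p (mean 153994 CPM in WT of batch 1, 301016 CPM in WT of batch 2). Between the WT batches, 2 of the 6 were called higher and 2 lower in batch 2. These 6 do not tell round spermatids from late meiotic cells. Among WT libraries alone, 56.7% of 383 miRNAs tested differed between the batches, and so KO and KI were each read against the WT of the same batch.

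In WT RS, miR-741-3p was the most abundant member in both batches. It read 13460.1 ± 769 CPM (SD, n = 5) in batch 1 and 12591 ± 622 CPM (SD, n = 6) in batch 2, and stood 10th and 8th among all names by mean CPM. By count it made up 46.8% of the reads of the 9 members in WT of batch 1 and 41.6% in WT of batch 2. In WT of batch 1 the order continued with miR-880-3p (3444 CPM), miR-743a-3p (3088 CPM), miR-743b-3p (2456 CPM), miR-883a-3p (2164 CPM), miR-871-3p (1627 CPM), miR-470-5p (1605 CPM), miR-471-5p (482 CPM) and miR-881-3p (455 CPM). Neighbours in that order overlapped between libraries, except for miR-741-3p above miR-880-3p, miR-743a-3p above miR-743b-3p and miR-470-5p above miR-471-5p. In WT of batch 2 miR-883a-3p stood second with 3717 CPM and miR-880-3p sixth with 2708 CPM. The mature products are 22 or 23 bases long, and whether the library chemistry captures them equally was not tested.

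Together the 9 members took 3.19% ± 0.154 (SD, n = 5) of all counts in WT of batch 1, with a range of 3.01% to 3.41%, and 2.73% ± 0.185 (n = 5) in KO, with a range of 2.47% to 2.93%. In batch 2 they took 2.57% ± 0.0861 (n = 6) in WT, with a range of 2.43% to 2.67%, and 2.07% ± 0.0703 (n = 6) in KI, the highest library being at 2.20%. All KO and all KI libraries lay below those of their WT. These shares are descriptions with no test, and they move with every other name in the library.

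In KO RS, 8 of the 9 members were lower than in WT and none was higher (edgeR quasi-likelihood test, adjusted p under 0.1). Of the 334 miRNAs tested 20.7% were called lower, 21.3% higher and 41.9% in either direction. By the fitted fold change miR-880-3p, at 0.668 times its WT level, changed most, and miR-741-3p fell to 0.770 times its WT level. Each fit scaled only its own libraries, so fold changes can differ from ratios of the CPM means, here 0.656 and 0.756. miR-871-3p was the member that did not pass the test. The median log2 fold change of the 9 was -0.36, beside 0.01 over all miRNAs tested. In 6 of the 9 every KO library lay below every WT library, a pattern that 11.7% of all tested miRNAs showed. In none was every KO library above every WT library, against 8.08% of all tested.

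miR-741-3p read 12684, 12940.2, 14551, 13189 and 13936 CPM in WT replicates 1 to 5 and 10222, 9525, 9792, 10511 and 10825 CPM in KO replicates 1 to 5. The groups did not overlap, and the log2 fold change was -0.38 (SE 0.06, adjusted p = 0.00161). miR-880-3p read 3026, 3417, 3782, 3278 and 3716 CPM in WT and 2149.6, 2255, 2163, 2541 and 2178 CPM in KO. All KO libraries lay below all WT libraries, KO replicate 4 being the highest of them, and the log2 fold change was -0.58 (SE 0.08, adjusted p = 5.44e-04). The study names miR-880 among the miRNAs it picked from these libraries, and its text takes the 5p arm where none is given. Here miR-880-5p had only 7 to 11 counts in each group, which arm was meant was not determined, and the direction of miR-880-3p is not taken as independent evidence. miR-881-3p, from the hairpin 1336 bases from that of miR-880, read 430.3, 479, 491, 417 and 456 CPM in WT and 351, 316, 317, 311 and 315 CPM in KO. Again no KO library reached the WT range, and the log2 fold change was -0.47 (SE 0.08, adjusted p = 0.00183).

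Both members with the common seed fell. miR-743a-3p read 2892, 3062, 3012, 3169 and 3306 CPM in WT and 2525, 2571, 2434, 2652 and 2734 CPM in KO, and the log2 fold change was -0.23 (SE 0.06, adjusted p = 0.0132). miR-743b-3p read 2415, 2289.6, 2509.9, 2298 and 2767 CPM in WT and 1977, 1883, 1989, 2042 and 2168 CPM in KO, and the log2 fold change was -0.26 (SE 0.07, adjusted p = 0.0147). Neither overlapped between the groups. With library size in place of TMM both stayed negative and missed the threshold (log2 fold changes -0.12 and -0.15, adjusted p = 0.174 and 0.133), as did miR-471-5p (-0.10, adjusted p = 0.405), and that scaling moved the median of all miRNAs to 0.13 and their split from 71 higher and 69 lower to 101 higher and 44 lower. With TMM factors computed without the miR-506-like products the split was 60 higher and 95 lower, and 8 members were again called lower.

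miR-470-5p read 1602, 1562, 1715, 1626 and 1522 CPM in WT and 1123, 1370.3, 1189, 1300.1 and 1060.1 CPM in KO, with no overlap and a log2 fold change of -0.38 (SE 0.09, adjusted p = 0.00761). miR-883a-3p read 2239, 2225, 2173, 1729 and 2454 CPM in WT and 1713, 1385, 1841, 1764 and 1549 CPM in KO. WT replicate 4 fell within the KO range, and the log2 fold change was -0.36 (SE 0.10, adjusted p = 0.0190). miR-471-5p was the weakest call, with 519, 493, 497, 462 and 441 CPM in WT, 427, 398, 369.8, 448 and 404 CPM in KO, and a log2 fold change of -0.21 (SE 0.08, adjusted p = 0.0727). Its groups overlapped through KO replicate 4, and it was no longer called without WT replicate 1, 2 or 3 or without KO replicate 2 or 3 (log2 fold changes -0.20 to -0.19, adjusted p = 0.116 to 0.151).

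miR-871-3p read 1464, 1622, 1559, 1884 and 1604 CPM in WT and 1626, 1665, 1923, 1551 and 1985 CPM in KO. The groups overlapped throughout, and the log2 fold change was 0.13 (95% interval -0.08 to 0.35, adjusted p = 0.300). Of the alternatives run, it passed the threshold with library size in place of TMM alone, as higher in KO (log2 fold change 0.24, adjusted p = 0.0935). The 5p product of the same hairpin, miR-871-5p, was lower in KO (log2 fold change -0.36, SE 0.09, adjusted p = 0.00903).

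**Figure D1:**
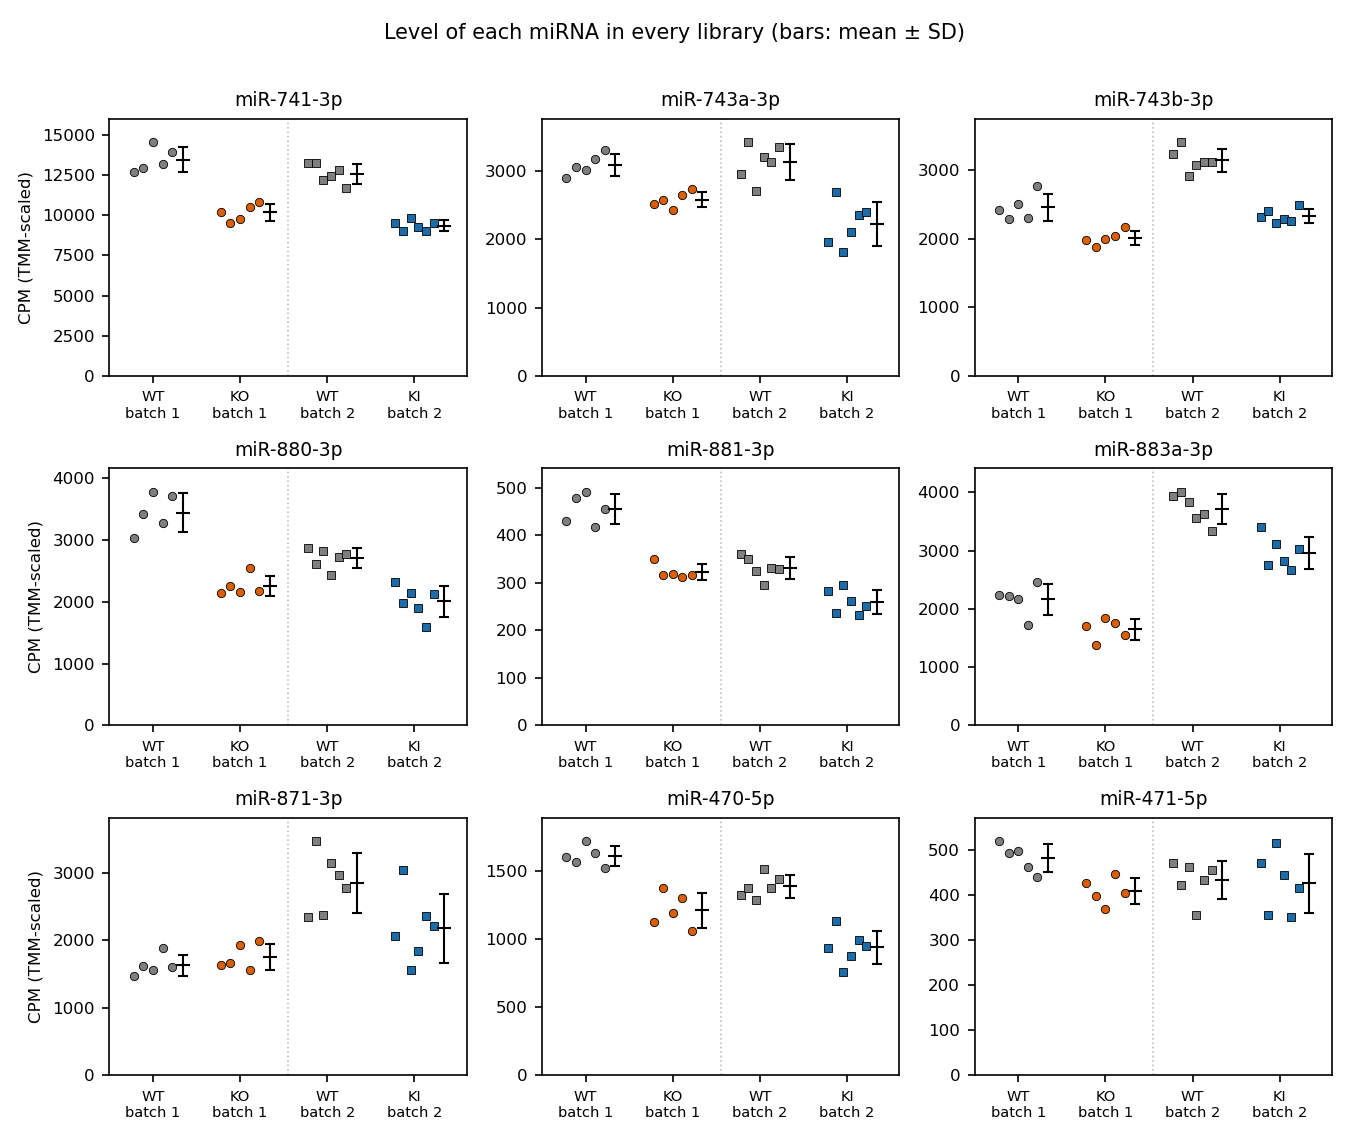
CPM (TMM-scaled, linear axes from 0) of each of the 9 miRNAs in all 22 libraries, with 1 point per library (circles batch 1, squares batch 2) and the mean ± SD beside each group. KO and KI lay below the WT of the same batch without overlap for miR-741-3p, miR-743a-3p, miR-743b-3p, miR-880-3p, miR-881-3p and miR-470-5p, while miR-883a-3p, miR-871-3p and miR-471-5p overlapped with WT in both KO and KI.

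In KI RS, 8 of the 9 members were likewise lower than in WT of batch 2 and none was higher. Of the 387 miRNAs tested 19.9% were called lower, 18.1% higher and 38.0% in either direction. The member that did not pass was miR-471-5p. The median log2 fold change of the 9 was -0.41, beside 0.00 over all miRNAs tested. In 6 of the 9 every KI library lay below every WT library, a pattern seen in 8.79% of all tested miRNAs, and these were the same 6 names as in KO. None lay wholly above WT, against 3.62% of all tested. Over all miRNAs 70 were called higher and 77 lower, a split that became 96 and 53 with library size only, 56 and 100 with TMM factors computed without the miR-506-like products, and 84 and 61 with the 2 miR-743 members summed.

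miR-741-3p ranged from 11684 to 13261 CPM (median 12603) in WT and from 8986 to 9803 CPM (median 9388) in KI. It had the smallest spread of the members in KI (3.38% of its mean), and its log2 fold change was -0.41 (SE 0.04, adjusted p = 1.17e-05). miR-743b-3p ranged from 2905 to 3406 CPM (median 3120.3) in WT and from 2222 to 2490.2 CPM (median 2302) in KI, and the log2 fold change was -0.41 (SE 0.05, adjusted p = 3.68e-05). Its partner miR-743a-3p ranged from 2709 to 3425 CPM (median 3168) in WT and from 1812 to 2689 CPM (median 2233) in KI, and the log2 fold change was -0.47 (SE 0.10, adjusted p = 0.00252). The gap between the lowest WT and the highest KI library was narrow for miR-743a-3p and wider for miR-741-3p and miR-743b-3p.

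miR-470-5p showed the largest difference of the 9 in KI. It ranged from 1284 to 1511 CPM (median 1372) in WT and from 756 to 1129 CPM (median 937) in KI, and its log2 fold change was -0.54 (SE 0.09, adjusted p = 7.35e-04). miR-880-3p ranged from 2429.6 to 2875 CPM (median 2755) in WT and from 1585 to 2321 CPM (median 2048) in KI, and the log2 fold change was -0.41 (SE 0.08, adjusted p = 0.00162). miR-881-3p ranged from 295 to 360.2 CPM (median 329) in WT and from 232 to 295 CPM (median 257) in KI, where the highest KI and the lowest WT library were separated by less than 1 CPM. Its log2 fold change was -0.33 (SE 0.07, adjusted p = 0.00472).

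miR-883a-3p ranged from 3331 to 4011 CPM (median 3733) in WT and from 2666 to 3404 CPM (median 2925) in KI, with 1 KI library inside the WT range and a log2 fold change of -0.31 (SE 0.06, adjusted p = 0.00254). miR-871-3p ranged from 2351 to 3468 CPM (median 2873) in WT and from 1557 to 3049 CPM (median 2136) in KI. Its spread in KI was the widest of the members (23.5% of the mean), and its log2 fold change of -0.36 (SE 0.15, adjusted p = 0.0769) lost its call without WT replicate 2, 4, 5 or 6 or without KI replicate 1, 3, 4, 5 or 6 (log2 fold changes -0.38 to -0.28, adjusted p = 0.109 to 0.210), and also with library size only (-0.28, adjusted p = 0.157). miR-471-5p ranged from 355 to 471 CPM (median 444) in WT and from 352 to 515 CPM (median 429.9) in KI. The groups overlapped almost fully, and the log2 fold change was -0.01 (95% interval -0.22 to 0.21, adjusted p = 0.973), with a sign that turned under several settings.

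**Figure D2:**
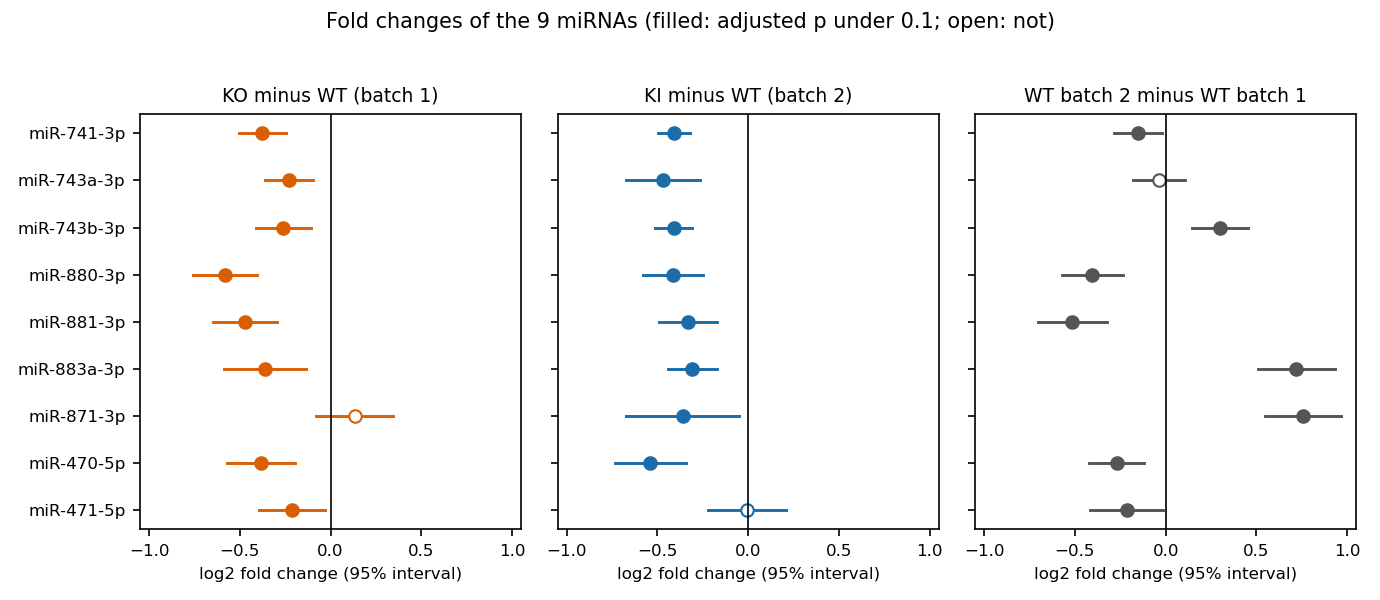
Log2 fold change (x axis) with its 95% interval for each of the 9 miRNAs in KO against WT, in KI against WT and in WT of batch 2 against WT of batch 1. Filled points passed an adjusted p of 0.1: in KO and in KI all points but 1 (miR-871-3p in KO, miR-471-5p in KI) were filled and lay below 0, while between the WT batches they lay on both sides of 0.

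The KO effect and the KI effect were compared in a fit of all 4 groups, with the WT of the same batch as the reference of each. None of the 9 members and 0.0% of the 421 miRNAs tested passed the test of the difference. At an unadjusted p under 0.05 there were 67 miRNAs, and DESeq2 also called 0. The largest difference among the members was that of miR-871-3p, at 0.49 (SE 0.19, 95% interval 0.11 to 0.87, adjusted p = 0.202), with a positive value where KO was higher relative to its WT than KI. Without KI replicate 2 that difference was 0.61 (adjusted p = 0.0621) and 26 miRNAs were called, and without WT replicate 1 of batch 2 there was 1 call, outside the group. For miR-741-3p the difference was 0.02 with an interval of -0.13 to 0.18, and for miR-880-3p it was -0.18 with an interval of -0.42 to 0.07.

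Between WT libraries of the 2 batches the members did not move one way. miR-871-3p (log2 fold change 0.76, SE 0.10, adjusted p = 1.50e-05), miR-883a-3p (0.72, SE 0.10, adjusted p = 2.50e-05) and miR-743b-3p (0.30, SE 0.07, adjusted p = 0.00242) were higher in batch 2, where 26.9% of all miRNAs tested were called higher. The call of miR-743b-3p was lost, at -0.03, with library size in place of TMM, a scaling that moved the median of all miRNAs to -0.34 and the split from 103 higher and 114 lower to 47 higher and 193 lower. miR-881-3p (-0.52, SE 0.09), miR-880-3p (-0.40, SE 0.08), miR-470-5p (-0.27, SE 0.07), miR-471-5p (-0.21, SE 0.09) and miR-741-3p (-0.15, SE 0.06) were lower in batch 2, with adjusted p of 1.79e-04, 4.71e-04, 0.00474, 0.0728 and 0.0498, against 29.8% called lower among all tested. The libraries did not overlap for the 3 higher members (19.3% of all tested were higher without overlap) and for miR-881-3p, miR-880-3p and miR-470-5p (18.5% were lower without overlap). The call of miR-741-3p was lost without WT replicate 3 or 5 of batch 1 (log2 fold changes -0.11 and -0.12, adjusted p = 0.160 and 0.142), and that of miR-471-5p without WT replicate 1, 2 or 3 of batch 1 (log2 fold changes -0.19 to -0.18, adjusted p = 0.135 to 0.163). Without a filter on low counts miR-741-3p (-0.06, adjusted p = 0.591), miR-471-5p (-0.12, adjusted p = 0.518) and miR-470-5p (-0.18, adjusted p = 0.184) were not called, and with DESeq2 miR-741-3p (-0.12, adjusted p = 0.176) and miR-471-5p (-0.18, adjusted p = 0.177) were not. miR-743a-3p was not called (-0.04, SE 0.07, adjusted p = 0.705), except as lower with library size only (-0.37, adjusted p = 7.08e-05).

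The ratio of the 2 miR-743 members separated the batches, with no overlap, and overlapped between genotypes within a batch. miR-743a-3p stood at 1.26 times miR-743b-3p in WT of batch 1 by count, with a range of 1.20 to 1.38, and at 1.28 times in KO, with a range of 1.22 to 1.37. In batch 2 it stood at 0.993 times in WT, with a range of 0.913 to 1.07, and at 0.947 times in KI, with a range of 0.816 to 1.12. These ratios within a library need no scaling and were given no test.

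The 5p and 3p products of 1 hairpin come from a single precursor, so their ratio within a library was examined next. The 3p product dominated in 7 of the 9 hairpins and the 5p product in miR-470 and miR-471, where it is the member. In WT of batch 1 the 3p share of the reads of a hairpin ranged from 63.9% for miR-881 and 75.6% for miR-871 to 99.97% for miR-880 and was 2.70% for miR-470 and 4.91% for miR-471. The miR-880 hairpin was left out of the tests, because its 5p product had 7 or 8 counts in total in each WT group. For the other 8 hairpins the log2 ratio of the 3p to the 5p count (0.5 added to each) was compared within the batch by a two-sided exact permutation test, adjusted over 16 tests. None passed, and the KO and KI libraries overlapped with WT in every case but 1. With 5 libraries against 5, a single hairpin could not reach an adjusted p under 0.127, so the count of 0 in KO says nothing of whether the ratio of a single hairpin changed.

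That case was the miR-871 hairpin in KO. The log2 ratio was 1.30, 1.83, 1.54, 1.84 and 1.68 in WT replicates 1 to 5 and 2.04, 2.05, 2.35, 1.90 and 2.30 in KO replicates 1 to 5. All KO libraries lay above all WT libraries, with a difference of 0.49 (exact permutation p = 0.00794, the smallest that 5 against 5 libraries can give, adjusted p = 0.127). In KI the same ratio averaged 3.13 ± 0.494 (SD, n = 6) against 3.37 ± 0.319 (SD, n = 6) in WT of batch 2, and the libraries overlapped. The ratio of miR-881 in KI differed from WT by -0.14 (adjusted p = 0.417), and without KI replicate 1 by -0.20 (exact permutation test, adjusted p = 0.0693), which passed the threshold.

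The arm ratios also differed between the WT libraries of the batches. The mean log2 ratio of miR-871 was 1.64 in batch 1 and 3.37 in batch 2, and that of miR-883a was 3.18 and 3.99, with no overlap between the libraries for either. For miR-470 it was -5.19 in batch 1 and -5.87 in batch 2, and for miR-471 -4.27 and -5.13, so that in both the dominant 5p product was further ahead in batch 2. In these 4 hairpins the major arm held more of the reads in batch 2. For miR-743a (7.79 and 8.93), miR-741 (5.68 and 5.98) and miR-880 (11.66 and 12.05) the mean ratio was also higher in batch 2, but the libraries overlapped. The overlap of miR-743a came from replicate 5 of batch 1 (8.72) alone, and the 5p product of miR-880 was scarce. In miR-743b (5.04 and 4.81) and miR-881 (0.83 and 0.70) the mean ratio was lower in batch 2 and the libraries overlapped. These values were given no test.

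**Figure D3:**
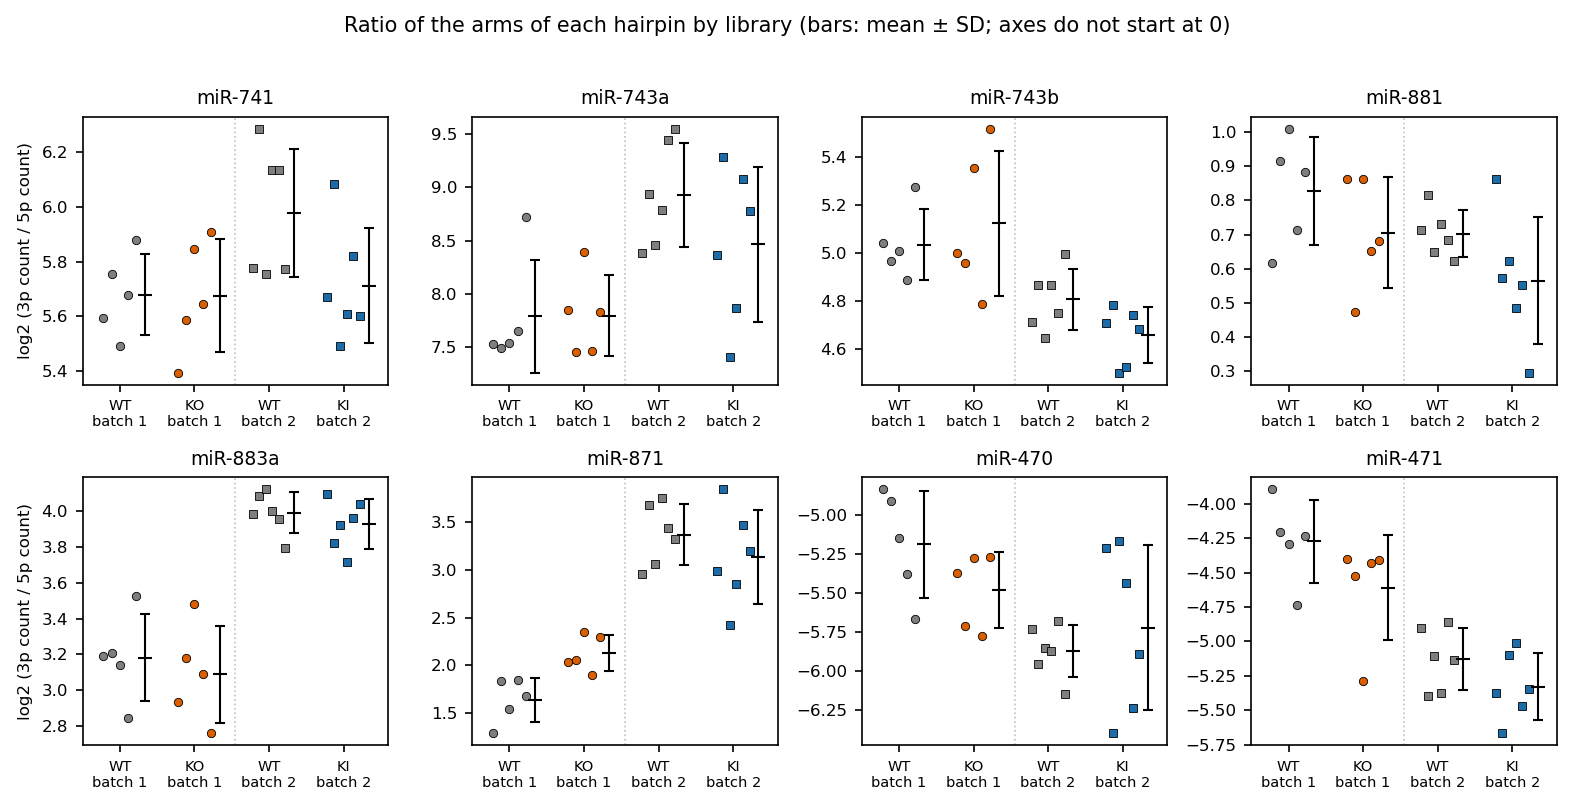
Log2 ratio of the 3p count to the 5p count (y axis, a separate range in each panel) of 8 hairpins in every library, with mean ± SD beside each group. The KO libraries of miR-871 lay above its WT libraries, and for miR-871, miR-883a, miR-470 and miR-471 the WT libraries of the 2 batches did not overlap.

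Other products of the X-linked miR-506-like hairpins were read from a list of 31 names. Of these, 23 passed the filter in KO, where 13 were lower, 10 did not pass the test and none was higher (median log2 fold change -0.30). In KI 14 of 23 were lower, 9 did not pass and none was higher (median -0.30). Products of the miR-465 hairpins account for 4 of the lower calls in each, and their near-identical copies may have been counted from the same reads. In KO, miR-465a-3p, miR-465b-3p and miR-465c-3p averaged 6093, 12187 and 12150 CPM. Their changes from WT were -23.2%, -23.2% and -23.3%, so these names do not stand for separate changes. The other arms of the members' own hairpins were lower in 6 of 8 tested in KO and in 2 of 8 in KI. Among all miRNAs tested, 20.7% were called lower in KO and 19.9% in KI, and the 2 of 8 in KI lay near that share. As the list was made with results of these data known, these counts are descriptions.

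The largest of these changes in KO were those of miR-470-3p (log2 fold change -0.72, SE 0.20, adjusted p = 0.0149) and miR-471-3p (-0.56, SE 0.24, adjusted p = 0.0974), the minor arms of 2 member hairpins. In KI they were those of miR-742-3p (-0.74, SE 0.21, adjusted p = 0.0182) and miR-201-3p (-0.56, SE 0.18, adjusted p = 0.0270). These 4 were scarce, between 3.66 and 55.7 CPM in any library, and the first pair was not called in KI nor the second in KO.

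**Figure D4:**
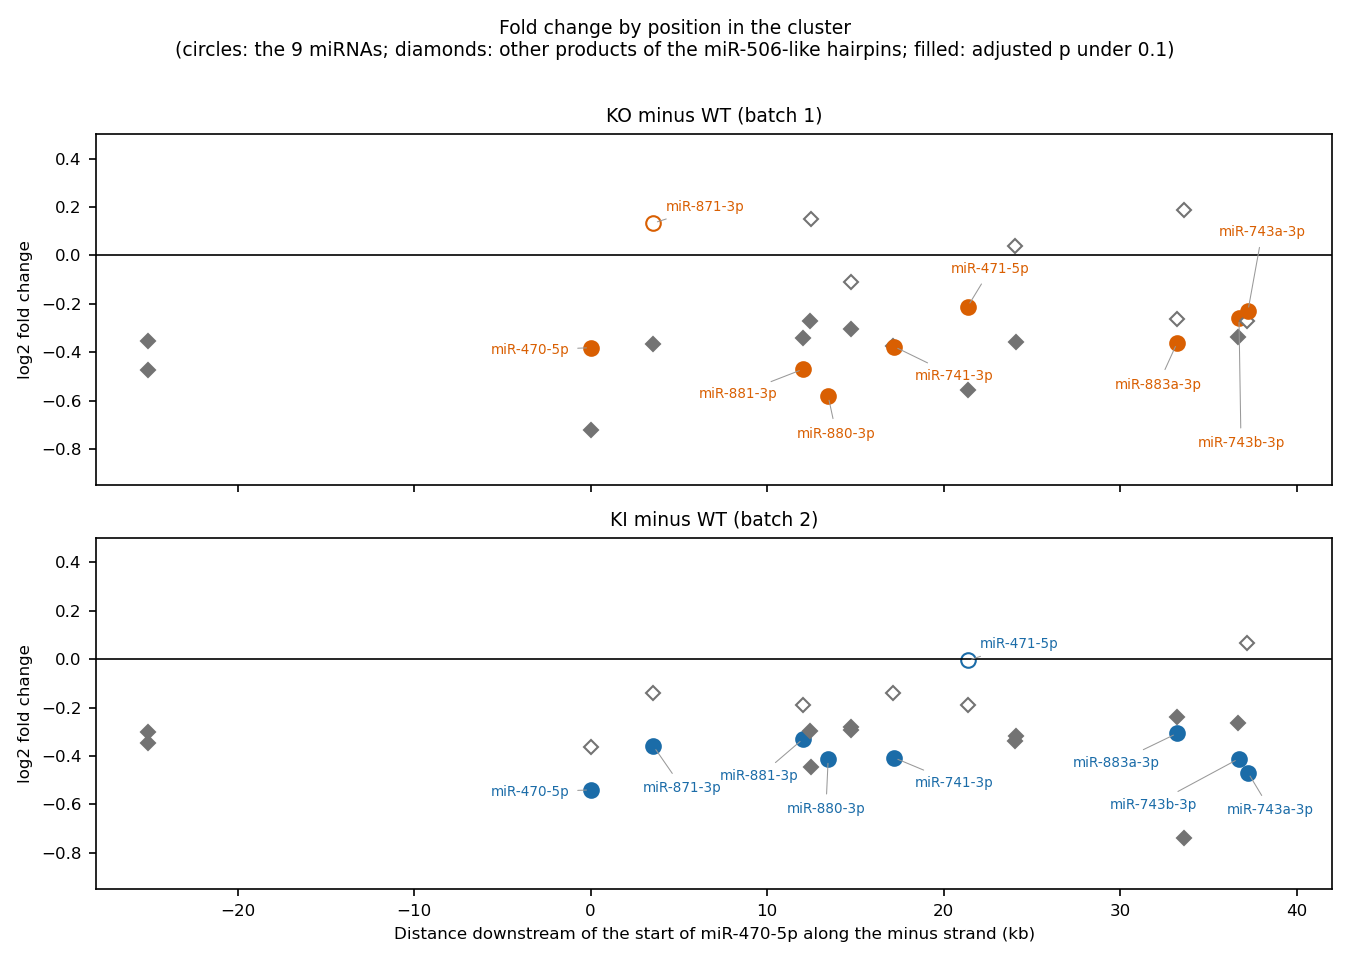
Log2 fold change (y axis) in KO and in KI of the 26 tested products with a single locus around the members, by distance in kb downstream of the start of miR-470-5p on the minus strand. Circles are the 9 miRNAs and diamonds the 17 other products, filled where the adjusted p was under 0.1: filled points lay below 0 along the whole stretch in both panels.

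X-linked names more than 1 Mb from every member, with the miR-506-like products left out, were called in both directions. Of 20 tested in KO, 6 were higher and 3 lower (median log2 fold change 0.04), and of 26 tested in KI, 4 were higher and 5 lower (median -0.08). Autosomal names had 65 higher and 45 lower of 279 tested in KO (median 0.06) and 66 higher and 50 lower of 325 in KI (median 0.04). The difference between these lists and the members was not tested.

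Profiles across the 22 libraries were then compared with the mean profile of the 9 members, each as log2(CPM + 1) less the WT mean of its batch. Of 287 other miRNAs with at least 10 CPM in each group, the most alike were miR-140-3p (Pearson r = 0.97, Spearman rho = 0.90), miR-138-5p (r = 0.96, rho = 0.89), miR-465c-3p (r = 0.95, rho = 0.88), miR-465a-3p (r = 0.95, rho = 0.88) and miR-465b-3p (r = 0.95, rho = 0.88). The miR-465 names may hold the same reads and are not separate profiles. The median r over all 287 was 0.07. All points share the libraries, their scaling and the genotype difference, so the values describe likeness only. Within groups the members varied apart as well as together. Over the 36 pairs of members the correlation of their deviations from the group means, across 22 libraries, had a median of 0.17 and ran from -0.79 for miR-871-3p with miR-471-5p to 0.80 for miR-743a-3p with miR-871-3p, with 19 pairs above 0.

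Markers of other cell types were read in the same libraries. The 5 miRNAs of vascular and stromal cells (miR-126a-3p, miR-143-3p, miR-145a-5p, miR-199a-3p and miR-214-3p) summed to 636 to 1709 CPM in WT of batch 1 and 1580.3 to 3219 CPM in KO, and to 1158 to 1930.2 CPM in WT of batch 2 and 1767 to 3798 CPM in KI. Of the 4 that could be tested, 3 were higher in KO and 3 in KI. Over all miRNAs tested, 21.3% were called higher in KO and 18.1% in KI. Most of the sum was miR-199a-3p, with means of 1050 CPM in WT of batch 1, 2008 in KO, 1332 in WT of batch 2 and 2268 in KI. For miR-126a-3p these means were 219, 279, 231 and 223 CPM, so it was not higher in KI. The 6 blood cell miRNAs summed to 4037 to 5096 CPM (median 4893) in WT of batch 1 and 4333 to 6094 CPM (median 4650) in KO. In batch 2 they summed to 2935 to 3955 CPM (median 3443) in WT and 3641 to 5899 CPM (median 5020) in KI. The median was thus lower in KO than in its WT and higher in KI, with overlap in both batches. Most of the sum was miR-142a-3p, with means of 4205 CPM in WT of batch 1, 4477 in KO, 2866 in WT of batch 2 and 4063 in KI. Of the 5 tested, 2 were called higher in KO and 4 in KI. Of the red cell miRNAs, miR-451a averaged 33.9 to 51.5 CPM over the 4 groups and miR-144-3p had 1 count in all libraries together.

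Of the 6 germ cell miRNAs named above, 2 were lower and 1 higher in KO, with a summed 195349 to 238792 CPM in WT and 170023 to 225211 CPM in KO, and 1 was lower and none higher in KI, with 365474 to 420409 CPM in WT and 338495 to 387064 CPM in KI. Of the 2 muscle miRNAs 1 was tested and higher in KO, and neither of the 2 tested was called in KI. Their sum ran from 11.5 to 147 CPM (median 31.9) in KO and from 8.10 to 29.5 CPM (median 14.5) in WT of batch 1, with overlap between the groups, and in batch 2 it ran from 42.5 to 758 CPM in WT and 38.1 to 523 CPM in KI. Of the 7 undifferentiated germ cell miRNAs, miR-295-3p averaged 55.2 to 93.5 CPM over the groups and miR-294-3p had 237 counts in all libraries together, while the other 5 had between 1 and 20 counts each. For this list 2 were tested, with no call in KO and 1 higher in KI. The part of these markers in the lower levels of the members was not tested.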

How the data were processed

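miRNA-seq libraries of round spermatids from 22 samples in 4 groups were analysed. The authors deposited raw counts for each mature miRNA and library, and 0 columns were left unused. Per the submitters' processing notes and the methods, reads were trimmed with cutadapt 3.4 (minimum length 15), aligned to GRCm38 (mm10) with Bowtie2 2.4.2 in a local mode that reports many alignments per read, and counted by strand on miRBase names with featureCounts of Subread 2.0.1. FastQC 0.11.9 and SAMtools 1.12 are also named. No collapse of reads by molecular identifier was described, so floors cover counting error only. Of 1966 names, 82 had several loci and may hold reads counted more than once. Each member had 1 locus, which does not exclude reads shared with a near-identical name. Batches are numbered here by the order of the batch codes in the labels, which puts KO in batch 1 and KI in batch 2, whereas the methods call the batch of KI the first.

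Counts were fitted in edgeR 4.0.16 (R 4.3.3; quasi-likelihood, TMM scaling, filterByExpr), with Benjamini-Hochberg adjustment over all miRNAs of a fit and a call at 0.1, the cutoff of the study. KO and KI were each fitted with the WT of their batch and genotype as the only term, WT between batches separately, and the difference of the effects in a fit of all 4 groups. Each fit was tested on counts simulated with changes larger than that of any member. Of the changed miRNAs 92.2% were recovered for KO, 93.8% for KI, 94.2% between WT batches and 79.5% for the difference of the effects. Recovery of smaller changes was not simulated. Arm ratios were tested by exact permutation over libraries. Tables were handled with Python 3.11.15, pandas 2.3.3 and scipy 1.17.1.

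The members and all lists (miR-506-like hairpins, cell type markers) were chosen with earlier results of these data known. All members are named. Of the other miR-506-like products, up to 2 higher and 2 lower calls with the largest change are named for each of KO and KI, with the 5 profiles most like the members. miR-871-5p and the shared UAGA end were chosen after their values were seen. Alternatives were DESeq2 1.42.0, its size factors in edgeR, library size only, TMM without the miR-506-like products, no filter on low counts, counts divided by the number of loci, miR-743a-3p and miR-743b-3p summed, a threshold of 0.05, a replicate block, a fit of all groups, and each replicate left out in turn.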

Additional observations from a re-analysis of the deposited data

Results flagged for a closer look

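A screen of 72 combinations of a miRNA level or arm ratio with a group looked for a single library far from the rest of its group, measured as its gap to the nearest other library divided by the range of the group. Chance finds about 1 in 20, or 3.6 of 72, and 4 were found. For the arm ratio of miR-743a in WT of batch 1 the measure was 0.868: replicate 5 had a log2 ratio of 8.72, against 7.49 to 7.66 in the others. For miR-881-3p in KO it was 0.842, with replicate 1 at 8.46 on the log2(CPM + 1) scale and the others at 8.29 to 8.31. For miR-880-3p in KO it was 0.714, with replicate 4 at 11.31 and the others at 11.07 to 11.14. For the arm ratio of miR-471 in KO it was 0.861, with replicate 3 at -5.29 and the others at -4.53 to -4.40. The 2 high KO libraries lay toward the WT level, and both miRNAs were still called lower without either.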

How the results depend on the processing

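In KO the members called numbered 6 to 8 over 10 alternatives and 7 to 8 with a replicate left out, and in KI 6 to 8 and 7 to 8. The 6 in KO, with library size only, were 5 lower and 1 higher. The 6 in KI, all lower, were of 8 names, since miR-743a-3p and miR-743b-3p were summed there. miR-741-3p, miR-880-3p, miR-881-3p, miR-883a-3p and miR-470-5p were called lower in KO and in KI under every alternative run. DESeq2 called 8 members in KO, 8 in KI and 6 between WT batches. For KO, miR-471-5p was not called at a threshold of 0.05, with library size only (-0.10), without a filter on low counts (-0.27) or with the replicate block (-0.21, adjusted p = 0.154). For KI, miR-871-3p was not called at 0.05, with library size only (-0.28), with counts divided by loci (-0.34) or with miR-743a-3p and miR-743b-3p summed (-0.31). The sign of miR-471-5p in KI turned with DESeq2 size factors (0.00998), library size only (0.0811), no filter (0.000181), counts divided by loci (0.0120) and the miR-743 sum (0.0360), and ran from -0.0680 to 0.0504 with a replicate left out. Between WT batches 5 members were called without a filter on low counts, where miR-743a-3p turned to 0.0541. It ran from -0.11 to 0.0124 with a replicate left out, and miR-743b-3p turned to -0.0302 with library size only. In the difference of the effects miR-741-3p turned to -0.0299 (DESeq2), -0.0312 (its size factors), -0.00468 (TMM without the miR-506-like products), -0.0551 (no filter), -0.0220 (counts divided by loci) and -0.0817 (miR-743 sum). With a replicate left out it ran from -0.11 to 0.0660, miR-883a-3p from -0.19 to 0.00188, the miRNAs called from 0 to 26 and the members called from 0 to 1. The arm ratio difference of miR-743a in KO was -0.0165 with 1 added to the counts. With a replicate left out it ran from -0.14 to 0.24, that of miR-741 from -0.0612 to 0.0670 and that of miR-743b from -0.00985 to 0.17, and the hairpins called in KI from 0 to 1. The share of the members in all counts was 6.24%, 5.10%, 5.80% and 4.59% (WT of batch 1, KO, WT of batch 2, KI) without miR-16-5p and miR-34c-5p in the total, and 4.33%, 3.68%, 3.34% and 2.69% with counts divided by loci. Without a filter on low counts the median of all miRNAs was 0.11 in KO and 0.10 between WT batches. The causes of these shifts were not tested.

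Replicate numbers did not pair the libraries: the deviations of same-numbered libraries correlated over 0.1 in 2 of 5 pairs for KO (mean r 0.02) and 3 of 6 for KI (mean r 0.19), and 2 and 3 libraries correlated best with their own number. With the number as a block 7 members and 124 miRNAs were called in KO, 8 and 165 in KI, and 25 miRNAs in the difference of the effects, among them miR-871-3p (0.51, adjusted p = 0.0620) as the 1 member.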
